A study of Mus musculus with 6 samples.

Results

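The transcripts followed here were 10 genes of fibroblast growth factor (FGF) signalling: the receptor genes Fgfr1, Fgfr2 and Fgfr3, the ligand genes Fgf2, Fgf7, Fgf18 and Fgf23, and the Sprouty genes Spry1, Spry2 and Spry4. They were taken by name from the 19938 genes with a probe set of their own on the array, and all 10 had a value. Each was represented by 1 probe set naming that gene alone. RNA came from CXCL12-abundant reticular (CAR) cells, reticular stromal cells of bone marrow that express Cxcl12 strongly, sorted by flow cytometry from femur and tibia of C57BL/6 mice aged 7 weeks. The groups were Dmp1-Cre targeted CAR cells and Dmp1-Cre non-targeted CAR cells, with 3 biological replicates each and 1 array per replicate. Both groups came from animals of one genotype, Dmp1-Cre with Cxcl12-gfp/+, so the non-targeted cells also carried the Cre transgene and a GFP reporter at the Cxcl12 locus. In Dmp1-Cre mice the recombinase is under control of the Dmp1 promoter region, which is active in osteocytes and mature osteoblasts. Targeting therefore records Cre activity in a cell or its ancestors, and the labels do not name the reporter that revealed it. The design text speaks of 3 mice and of 1 mouse per sample, and does not say whether a replicate number marks the same mouse in both groups.

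FGF ligands are secreted proteins that bind receptor tyrosine kinases at the cell surface, with heparan sulphate or, for endocrine ligands such as FGF23, a Klotho protein as co-receptor. The activated receptor signals through docking proteins and the Ras and MAP kinase cascade. The Sprouty genes are switched on by this cascade and encode proteins that dampen it, so their transcripts are often read as a trace of pathway activity. In the skeleton the receptors govern growth and maturation of cartilage and bone, and FGF23 is the osteocyte hormone that makes the kidney excrete phosphate. Values are log2 of the deposited array intensity. Because probe sets differ in how brightly they report a given amount of RNA, levels were not compared between genes.

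The arrays had median intensities between 79.4 and 87.5, and log2 values of array pairs correlated at 0.91 to 0.96 across the genes tested. Dmp1 was at 11.28, 10.03 and 9.89 on the targeted arrays, against 7.51, 6.93 and 6.91 on the non-targeted arrays, in the direction of the labels. All 12 CAR cell markers passed the filter on dim genes, among them Cxcl12 at 12.22 to 12.40 in targeted cells and 12.32 to 12.65 in non-targeted cells. On the main axis of variation among the arrays, with 36.5% of the variance over the genes tested, the groups overlapped. Targeted replicate 1 lay at 28.5 on it, non-targeted replicate 2 at 25.2 and targeted replicate 3 at -28.6. The targeted replicate 1 array stood apart in summed neutrophil and fibroblast markers. It was also the highest in summed osteoblast markers, at 28641 against 18505 and 21857 for targeted replicates 2 and 3. In the neutrophil sum targeted replicate 2 was also below every non-targeted array. The replicate 1 array's summed intensity over 11 neutrophil markers was 1067, against 8048 and 11399 for targeted replicates 2 and 3 and 8937 to 14033 for non-targeted cells. Its summed intensity over 10 fibroblast and periosteal markers was 17310, against 7381 and 8573 for targeted replicates 2 and 3 and 8322 to 10420 for non-targeted cells. Xist, transcribed from the inactive X chromosome of female cells, was at 12.00 and 11.31 on the replicate 1 arrays of targeted and non-targeted cells and below 5.90 on the other 4. The Y-linked genes Eif2s3y, Kdm5d and Uty were lowest on those 2 arrays, the pattern of female RNA on the arrays numbered 1 and of male RNA on the others. The labels used here give no sex, and each tested member is also given for replicates 2 and 3 alone.

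None of the FGF genes passed the adjusted test between targeted and non-targeted cells, and Spry2, lower in targeted cells on every array, came nearest. Of the 10, 9 passed the filter on dim genes, a mean log2 intensity above 6.00, and were tested with limma. Over all 13292 genes tested, 0.0% passed an adjusted p of 0.05, and 0 of the 9 FGF genes did so. Unadjusted p-values under 0.05 were found for 4.77% of all genes tested and for 1 of the 9 FGF genes, Spry2. On 9.07% of all genes tested the targeted and non-targeted arrays did not overlap, and among the 9 FGF genes Spry2 was again the 1 of which this held. In targeted cells 4 of the 9 had a higher mean and 5 a lower one, where 51.1% of all genes tested had a lower one, with a median log2 difference, targeted minus non-targeted, of -0.05, against -0.005 over all genes tested. These figures are near those of the whole table. In sorted populations a smaller share of expressing cells and less RNA per cell cannot be told apart.

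**Figure D1:**
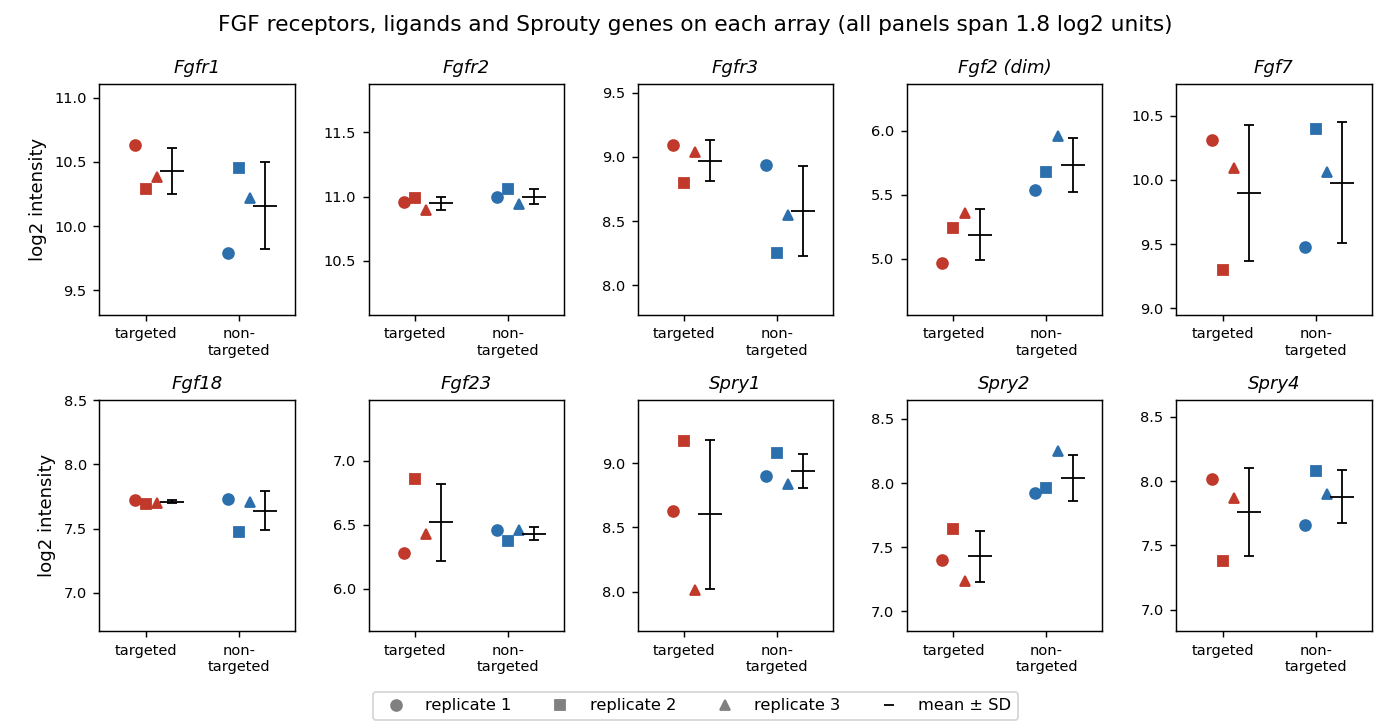
Log2 array intensity (y axis) of the 10 FGF genes in targeted (red, left) and non-targeted (blue, right) CAR cells, with 1 point per array, a symbol per replicate number, and the mean with SD beside the points (n = 3 each). Only in the panels of Spry2 and of the dim gene Fgf2 do all targeted points lie below all non-targeted points. Fgfr2 and Fgf18 show the tightest points and Fgf7 and Spry1 some of the widest.

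Spry2, an intracellular inhibitor of receptor tyrosine kinase signalling, gave the clearest separation of the members. Its log2 intensity was 7.40, 7.64 and 7.24 on the targeted arrays, against 7.92, 7.96 and 8.25 on the non-targeted arrays. Every targeted array lay below every non-targeted one, with the nearest pair being targeted replicate 2 and non-targeted replicate 1. Such a separation with lower targeted values was found for 5.76% of all genes tested. The means were 7.43 ± 0.20 (SD, n = 3) in targeted cells and 8.04 ± 0.18 (SD, n = 3) in non-targeted cells, a log2 difference of -0.62 (SE 0.17, 95% interval -1.02 to -0.21), or 1.53-fold lower in targeted cells. The gene did not pass limma's test over all genes (unadjusted p = 0.008, adjusted p = 0.824), and 3.42% of all genes tested had an unadjusted p under 0.05 with a lower targeted mean. On replicates 2 and 3 alone the log2 difference was -0.67. Neutrophil markers were scarce on the targeted replicate 1 array, and without that array the difference of Spry2 was -0.60. It was -0.73 without targeted replicate 2, whose summed intensity over these markers was also below that of every non-targeted array. Each of these fits keeps the other array, and the part of neutrophil content in the difference was not tested.

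Spry1, a second member of the same inhibitor family, varied most among the targeted arrays. It was at 8.63, 9.17 and 8.01 in targeted cells, against 8.90, 9.08 and 8.84 in non-targeted cells. Targeted replicate 2 was the highest of the 6 arrays and targeted replicate 3 the lowest, so the groups overlapped. Its means were 8.60 ± 0.58 (SD, n = 3) in targeted cells and 8.94 ± 0.13 (SD, n = 3) in non-targeted cells, a log2 difference of -0.34 (SE 0.28, 95% interval -0.99 to 0.31, limma adjusted p = 1.00). The value rested largely on 1 array, being -0.04 without targeted replicate 3 and -0.62 without targeted replicate 2. It was -0.37 on replicates 2 and 3 alone.

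Spry4, the remaining Sprouty gene measured here as a member, was at 8.02, 7.38 and 7.87 in targeted cells, against 7.66, 8.08 and 7.90 in non-targeted cells. The groups overlapped, with targeted replicate 2 lowest and non-targeted replicate 2 highest. The log2 difference was -0.12 (SE 0.21, 95% interval -0.61 to 0.37, limma adjusted p = 1.00), and it was 0.07 without targeted replicate 2. On replicates 2 and 3 alone it was -0.37. All 3 Sprouty members thus had lower means in targeted cells, as did 51.1% of all genes tested, while only Spry2 had separate groups. The dim Sprouty gene Spry3 went the other way, with a log2 difference of 0.16. Whether the 3 members differed from one another in their response was not tested.

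Of the receptors, Fgfr3 showed the largest difference. Its product restrains chondrocyte growth and is also made in osteoblast lineage cells. The probe set read 9.09, 8.80 and 9.04 in targeted cells, against 8.94, 8.25 and 8.55 in non-targeted cells. Overlap of the groups came from non-targeted replicate 1, which exceeded targeted replicate 2, while the other non-targeted arrays lay below all targeted ones. Mean values were 8.97 ± 0.16 (SD, n = 3) in targeted cells and 8.58 ± 0.35 (SD, n = 3) in non-targeted cells, a log2 difference of 0.39 (SE 0.21, 95% interval -0.09 to 0.87) or 1.31-fold. It did not pass (limma, unadjusted p = 0.0954, adjusted p = 1.00). With 1 array left out the difference ran from 0.23 without non-targeted replicate 2 to 0.57 without non-targeted replicate 1, and on replicates 2 and 3 alone it was 0.52.

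Fgfr1, the receptor of osteoblasts and osteocytes that also controls Fgf23 in bone, was at 10.63, 10.29 and 10.38 in targeted cells, against 9.79, 10.45 and 10.22 in non-targeted cells. Targeted replicate 1 was highest and non-targeted replicate 1 lowest, and the remaining 4 arrays interleaved. The log2 difference was 0.28 (SE 0.21, 95% interval -0.20 to 0.76, limma adjusted p = 1.00). It was 0.10 without non-targeted replicate 1, and on replicates 2 and 3 alone it was -0.00035.

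Fgfr2, whose splice forms serve epithelia and skeletal mesenchyme, was the steadiest receptor. Its log2 intensities were 10.96, 10.99 and 10.90 in targeted cells, against 11.00, 11.06 and 10.94 in non-targeted cells. The 6 arrays lay close together and the groups overlapped. Its log2 difference was -0.05 (SE 0.14, 95% interval -0.37 to 0.27, limma adjusted p = 1.00), and it was -0.06 on replicates 2 and 3 alone. The probe set summarises the gene as a whole, so splice forms of the receptors were not separated.

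Fgf7, a mesenchymal ligand that acts mainly on epithelial cells through a splice form of Fgfr2, varied widely within both groups. It was at 10.31, 9.30 and 10.09 in targeted cells, against 9.48, 10.40 and 10.06 in non-targeted cells. Its arrays spanned 1.01 log2 units in targeted and 0.92 in non-targeted cells, far more than the difference of the means of -0.08 (SE 0.32, 95% interval -0.83 to 0.67, limma adjusted p = 1.00). Targeted replicate 2 and non-targeted replicate 1 were the lowest 2 arrays for Fgf7, and they were also the lowest 2 for Spry4. The sign followed single arrays, with 0.22 without targeted replicate 2, 0.13 without non-targeted replicate 2 and -0.54 on replicates 2 and 3 alone.

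Fgf18, a ligand needed for normal cartilage and bone formation, was at 7.72, 7.69 and 7.70 in targeted cells, against 7.73, 7.47 and 7.71 in non-targeted cells. Non-targeted replicate 2 was the lowest array and the other 5 were nearly level. The log2 difference was 0.07 (SE 0.15, 95% interval -0.27 to 0.41, limma adjusted p = 1.00), and it was 0.11 on replicates 2 and 3 alone.

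Fgf23 was at 6.28, 6.86 and 6.43 in targeted cells, against 6.46, 6.37 and 6.46 in non-targeted cells. These values lie not far above the filter's limit of 6.00, and the groups overlapped, with targeted replicate 2 highest. Its log2 difference was 0.09 (SE 0.18, 95% interval -0.33 to 0.52, limma adjusted p = 1.00), and it was -0.08 without targeted replicate 2 and 0.22 on replicates 2 and 3 alone. Dmp1, whose loss raises FGF23 in mice and people, was 9.72-fold higher in the targeted cells on the same arrays. The Cre that defined the groups is under Dmp1 control, so the sort itself bears on that value.

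Fgf2, a ligand with broad mitogenic action that is stored in bone matrix, was dim. Its log2 intensities were 4.97, 5.24 and 5.36 in targeted cells, against 5.54, 5.68 and 5.96 in non-targeted cells, all under the filter's limit of 6.00. All targeted arrays lay below all non-targeted ones, which held for 4.32% of all genes when no filter was applied. Means were 5.19 ± 0.20 (SD, n = 3) in targeted cells and 5.73 ± 0.21 (SD, n = 3) in non-targeted cells, a log2 difference of -0.54. An exact two-sided permutation test gave p = 0.1, the smallest that 3 arrays against 3 allow, and without the filter limma gave an adjusted p of 1.00. No detection call was used, so how far these values lie above background is not known.

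**Figure D2:**
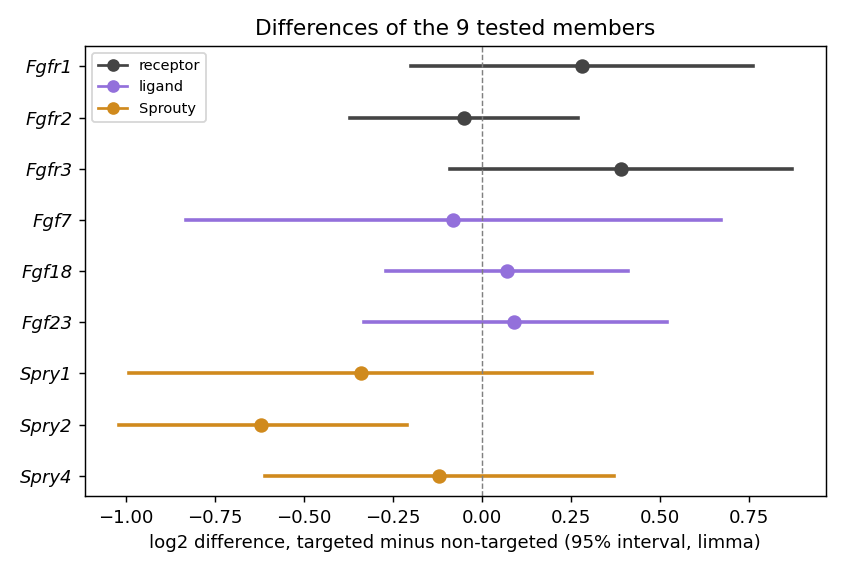
Log2 difference, targeted minus non-targeted (x axis), of the 9 tested FGF genes with the 95% interval of the limma fit (3 arrays per group), coloured by role. The interval of Spry2, from -1.02 to -0.21, is the one that does not reach 0, and it is not adjusted for the 13292 genes tested.

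**Figure D3:**
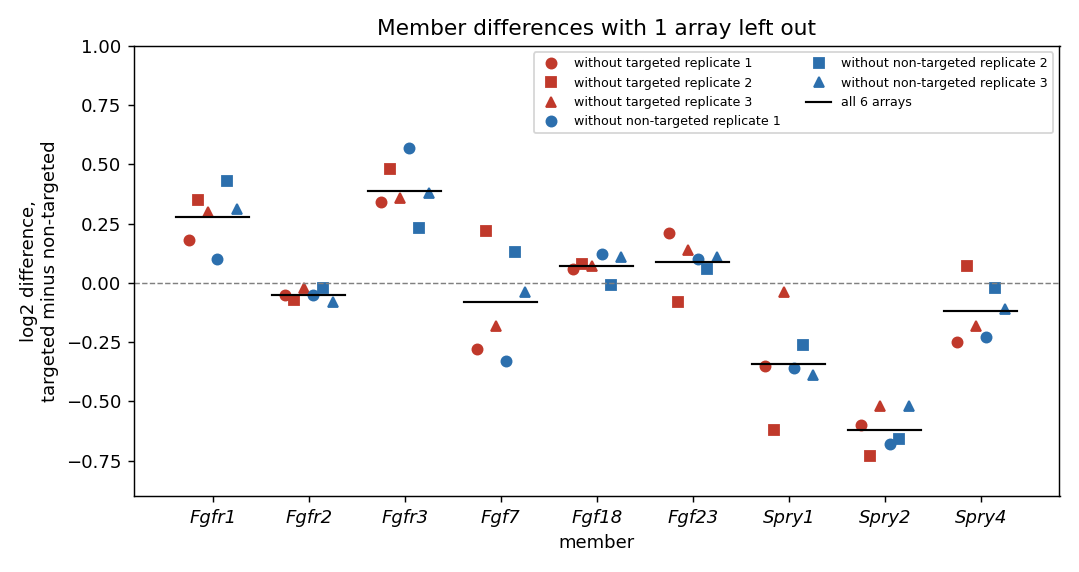
Log2 difference, targeted minus non-targeted (y axis), of each tested FGF gene with 1 array left out (points, by the array left out) and with all 6 arrays (black bar). Spry2 stays between -0.73 and -0.52 and Fgfr3 between 0.23 and 0.57, while Fgf7, Fgf18, Fgf23 and Spry4 cross 0.

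The sequences before the start sites of Spry2 and Fgf2 are shown because these were the 2 members on which all targeted arrays lay below all non-targeted ones. They are the 250 bases before the annotated start, 5′ to 3′, from RefSeq on GRCm38.p6, whose table held such a window for 8 of the 10 genes. Spry2 lies at chr14:105896820-105897069 on the minus strand and Fgf2 at chr3:37348403-37348652 on the plus strand. Capitals mark GGAA or its reverse complement TTCC, the core of sites for ETS factors, which act downstream of FGF receptors.
Spry2: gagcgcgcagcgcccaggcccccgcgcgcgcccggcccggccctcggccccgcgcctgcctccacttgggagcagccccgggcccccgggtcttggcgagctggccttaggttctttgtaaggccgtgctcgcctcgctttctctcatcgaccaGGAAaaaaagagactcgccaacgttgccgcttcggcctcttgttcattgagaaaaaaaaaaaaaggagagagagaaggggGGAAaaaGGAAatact
Fgf2: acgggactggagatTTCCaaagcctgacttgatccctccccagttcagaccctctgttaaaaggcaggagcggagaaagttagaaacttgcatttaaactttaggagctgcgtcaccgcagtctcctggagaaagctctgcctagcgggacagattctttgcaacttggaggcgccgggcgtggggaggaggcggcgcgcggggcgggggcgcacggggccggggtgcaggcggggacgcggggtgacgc
The Spry2 window held 3 such cores and the Fgf2 window 1, against a median of 3 over all 32851 windows, of which 93.4% held at least 1. The letters TGANTCA, an AP-1 type site that reads the same on both strands, were in neither window and in 6.75% of all windows. Both windows were 62.4% G and C, against a median of 52.4%. These are descriptions of letters and carry no measurement of binding.

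The genes most like the most variable tested member of each role were found by the smallest root-mean-square difference of centred log2 values over the 6 arrays, among 12444 genes. For Fgfr3 they were Kif22 (0.06), Zscan30 (0.08) and Rhbdl2 (0.10). For Fgf7 they were Lgals3bp (0.06), Bmpr1a (0.08) and Thada (0.10). For Spry1 they were Tor4a, Pycrl and Cstb (0.10 each). Lgals3bp, which encodes a secreted galectin-binding glycoprotein, was at 11.88, 10.92 and 11.60 in targeted cells, against 11.08, 12.07 and 11.75 in non-targeted cells, low on the same 2 arrays as Fgf7. With 6 arrays and so many genes, close matches are easily found, and this is a description only.

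The rest of the pathway was examined through 6 further lists of 92 genes, of which 84 had a value and 69 were tested. None of the 69 passed limma's adjusted threshold, 30 were higher and 39 lower in targeted cells, and the median log2 difference was -0.03, against -0.005 over all genes tested. Unadjusted p-values under 0.05 were found for 4 of them, Flrt2, Dmp1, Extl2 and Il17rd, beside 4.77% of all genes tested.

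Among the other ligands 13 of 18 were tested, with 7 higher, 6 lower and a median of 0.01. Fgf17 had the smallest unadjusted p of the list, 0.0957, at 6.59, 6.68 and 6.66 in targeted cells, against 6.45, 6.37 and 6.32 in non-targeted cells. Fgf13, an intracellular FGF-like protein that binds sodium channels, was at 7.19 on the targeted replicate 1 array and at 5.95 and 5.76 for targeted replicates 2 and 3, against 5.77 to 5.92 in non-targeted cells. It passed the filter through that single array, its mean in non-targeted cells being 5.82, so its difference of means of 0.48 is given without a test. It is counted among the 13 tested and the 7 higher, and was the 1 gene of the 69 in these lists to pass through 1 group alone. Fgf15 differed by 0.23 and Fgf1 by -0.27, each with an adjusted p of 1.00.

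Among receptors and co-receptors 6 of 10 were tested, 4 higher and 2 lower, with a median of 0.10. Flrt2, a transmembrane protein that can bind FGF receptors, was at 9.31, 8.95 and 8.88 in targeted cells, against 8.54, 8.51 and 8.71 in non-targeted cells. These groups did not overlap, as held with a higher targeted level for 3.32% of all genes tested, and its log2 difference was 0.46 (SE 0.17, limma adjusted p = 0.970). Nptn, an adhesion protein reported to bind Fgfr1, differed by -0.32, Flrt1 by 0.27 and the kinase-less receptor Fgfrl1 by -0.20. Fgfr4 was at 6.59 ± 0.08 (SD, n = 3) in targeted cells and 6.42 ± 0.15 (SD, n = 3) in non-targeted cells. Kl, the Klotho co-receptor that FGF23 needs in kidney, was dim, at 5.25 to 5.61 in targeted cells and 5.18 to 5.50 in non-targeted cells.

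The heparan sulphate genes build or carry the sugar chains on which FGFs dock. Of 22, 18 were tested, 5 higher and 13 lower, with a median of -0.05. Extl2, a glycosyltransferase of the linker region, was at 7.39, 6.62 and 7.09 in targeted cells, against 7.57, 7.88 and 7.77 in non-targeted cells, with a log2 difference of -0.71 (SE 0.22, limma adjusted p = 0.931). Of the core proteins, Sdc1 differed by -0.59, Sdc3 by 0.45 and Gpc1 by 0.52, each with an adjusted p of 1.00, and Gpc1 was at 8.89 on targeted replicate 1 and 7.64 and 7.75 for targeted replicates 2 and 3.

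The signal relay from docking proteins to MAP kinases had 14 of 20 genes tested, 7 higher and 7 lower, with a median of -0.03. Plcg1, a phospholipase that FGF receptors bind and phosphorylate, was at 7.57 ± 0.24 (SD, n = 3) in targeted cells and 7.13 ± 0.25 (SD, n = 3) in non-targeted cells and did not pass (limma, adjusted p = 1.00). Nras differed by -0.53, the ubiquitin ligase gene Cbl by -0.32 and the docking protein gene Frs3 by 0.19.

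Among other targets and feedback genes 14 of 15 were tested, 4 higher and 10 lower, with a median of -0.10. Dusp6, Etv4 and Etv5 are often used as readouts of FGF signalling, and their differences were smaller than their standard errors. Dusp6, a phosphatase of ERK, averaged 8.18 ± 0.24 (SD, n = 3) in targeted cells and 8.25 ± 0.44 (SD, n = 3) in non-targeted cells, a log2 difference of -0.06 (SE 0.25, 95% interval -0.64 to 0.51). The ETS factor genes Etv4 and Etv5 differed by 0.09 (SE 0.17) and 0.05 (SE 0.24), and Spred1, a Sprouty-related inhibitor gene, by -0.25. A second, dimmer probe set of Etv5 gave -0.09. Etv4 lay near the filter's limit of 6.00, at 5.97 to 6.40 in targeted cells and 5.96 to 6.27 in non-targeted cells.

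Larger differences were seen for feedback genes whose arrays scattered. Il17rd, which encodes the inhibitor Sef, was at 8.73, 7.51 and 7.28 in targeted cells, against 8.60, 8.99 and 9.47 in non-targeted cells, a log2 difference of -1.17 (SE 0.39, limma adjusted p = 0.947). Its groups overlapped through targeted replicate 1, and a second, dimmer probe set of Il17rd gave 0.09. Spred2 was at 8.78, 6.60 and 8.88 in targeted cells, against 8.67, 9.45 and 9.67 in non-targeted cells, a log2 difference of -1.18 (SE 0.59), with -0.31 on its second probe set. Ccnd1, the cyclin D1 gene, differed by 0.64 and was at 8.18 on targeted replicate 1, and Fos differed by -0.28, each with an adjusted p of 1.00.

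Of 7 genes that regulate FGF23, 4 were tested, with 3 higher and 1 lower. Dmp1 differed by 3.28 (SE 0.37, limma adjusted p = 0.384). Fam20c, the kinase that marks FGF23 for cleavage, differed by 0.39, the protease gene Furin by 0.08, and Phex, mutated in X-linked hypophosphataemia, by -0.22, each with an adjusted p of 1.00. Galnt3, whose product shields FGF23 from cleavage, and the osteocyte gene Mepe were dim.

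**Figure D4:**
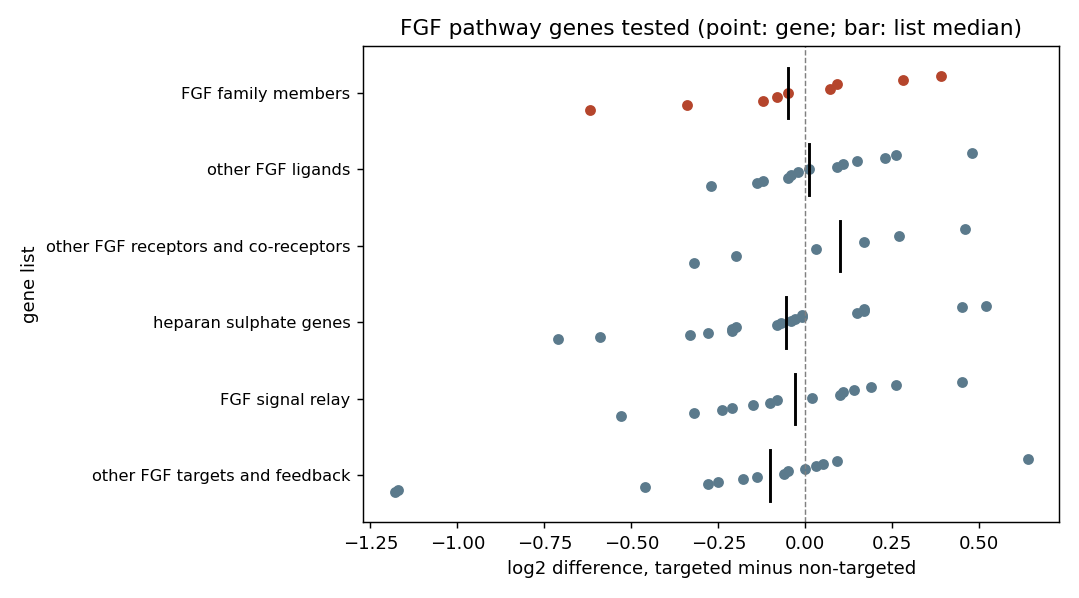
Log2 difference, targeted minus non-targeted (x axis), of each tested gene (points) among the FGF genes followed here (red) and the other pathway lists (grey), with each list's median (black bar). The FGF23 regulators are left out because Dmp1 at 3.28 would set the scale. The medians lie between -0.10 and 0.10, and the lowest 2 points are Spred2 and Il17rd.

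Across the populations, the osteoblast markers had higher means in targeted cells beside these values, 7 of the 7 tested, with summed intensities of 18505 to 28641 in targeted cells and 13668 to 16769 in non-targeted cells. All 12 CAR cell markers had lower means in targeted cells, with summed intensities of 30900 to 39086 in targeted cells and 38347 to 45928 in non-targeted cells. Among 9 endothelial markers 5 were tested and Pecam1, Kdr, Tek and Emcn were dim, with summed intensities of 708 to 760 in targeted cells and 744 to 806 in non-targeted cells. Of 9 macrophage markers 7 were tested, 4 higher and 3 lower. Neutrophil markers had lower means in targeted cells for 8 of the 9 tested, with a median log2 difference of -1.16. For Lcn2, a granule protein gene of neutrophils, the arrays read 5.86, 6.38 and 9.30 in targeted cells, against 8.38, 9.55 and 10.16 in non-targeted cells. Targeted replicate 2 was thus low for Lcn2 as well as replicate 1, and it was below every non-targeted array for Ngp, Ltf, Camp and Chil3. For S100a8, S100a9 and Retnlg it lay within the non-targeted range, and for Mpo it was the highest array. Fibroblast and periosteal markers had higher means in targeted cells for 6 of the 8 tested and lower means for 2, with a median of 0.59. In limma 3 of the 8 were higher with an unadjusted p under 0.05, a cutoff that 4.77% of all genes tested met in either direction. At this cutoff 4 of the 7 osteoblast markers were higher, and 4 of the 12 CAR cell markers and 1 of the 9 neutrophil markers lower. No marker of these lists passed the adjusted threshold. Postn, a periosteal matrix protein gene, had the largest difference of the fibroblast list and was its 1 marker whose arrays did not overlap. It was at 10.44, 7.43 and 7.27 in targeted cells, against 7.26, 6.26 and 5.51 in non-targeted cells. Ogn and Aspn of the same list went the other way, with log2 differences of -0.43 and -0.61. The part of these shifts in the values of Spry2 and Fgfr3 was not tested.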

How the data were processed

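The authors deposited linear array intensities per probe set, for which the submitters' processing notes name RMA and Affymetrix Expression Console 1.4. Each intensity was put on the log2 scale. Biotinylated cDNA came from 100 pg to 2 ng of total RNA per the labels' protocols. Of 35556 probe sets, 21789 named 1 gene, 1621 several and 12146 none. RefSeq symbols (GRCm38.p6) replaced older ones by Entrez identifier for 21698 probe sets. Where a gene had more than 1 probe set (999 genes), the brightest on average was used. Genes in the lowest 33.3% by mean, at or below 6.00, were left out as dim, leaving 13292. The genome build used upstream is not given in the sources used here.

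The test was limma's moderated linear model (version 3.58.1, R 4.3.3) over all 6 arrays without covariates, two-sided, with Benjamini-Hochberg adjustment over all genes tested and a threshold of 0.05. Intervals are the fit's 95% intervals. The procedure was tested on simulated data with 200 changed genes. It recovered 62.2% of 2-fold changes, the smallest size tried, and 99.8% of 8-fold changes, with a mean of 11.7 false calls per run. Noise in the simulation was drawn independently for each gene and array. In the real data Dmp1, 9.72-fold higher in targeted cells, was not called (limma adjusted p = 0.384). The recovery in the simulation therefore cannot be carried over to these arrays. All member differences were under 2-fold, so the simulation does not show whether changes of their size would be called. The number of arrays limits the precision.

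The members and lists were chosen with earlier results of these data known. The text names all members, Dmp1, Cxcl12, Fgfr4, Fgfrl1, Kl, Dusp6, Etv4, Etv5, Spred1, the dim genes Spry3, Galnt3 and Mepe, up to 4 genes of each pathway list by smallest unadjusted p, the genes most like 3 members, and a few markers chosen after their values were seen. Of the pathway lists 8 genes were not analysed here, nor were several markers. The pericyte, B cell, erythroid, chondrocyte and osteocyte lists had 0 members past limma's adjusted threshold in the main setting. At an unadjusted limma p under 0.05, Dmp1 of the osteocyte list and 1 pericyte marker were higher, and 1 B cell and 1 pericyte marker lower, in targeted cells. This cutoff was met by 4.77% of all genes tested. The counts for the osteoblast, CAR cell, neutrophil and fibroblast lists are given with their values above.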

Additional observations from a re-analysis of the deposited data

How the results depend on the processing

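Under 18 alternatives (dim genes kept or filtered more strictly, arrays scaled by quantiles, cyclic loess or medians, intensity trend, robust variances, array weights, mean of probe sets, a fixed or random replicate block, each array left out in turn and, chosen after seeing the data, replicates 2 and 3 alone) 0 of the FGF genes passed the adjusted threshold. The smallest adjusted p of a member was 0.149, for Spry2 with array weights. Spry2 ran from -0.73 to -0.52, Fgfr3 from 0.23 to 0.57 and Spry1 from -0.62 to -0.04, each in the same direction throughout. Of 162 member values, 9 reversed, and the cause was not tested. Fgfr2 was 0.03 with quantile and with cyclic loess scaling, Fgf7 was 0.0022 with cyclic loess scaling, and Fgfr1 was -0.00035 on replicates 2 and 3 alone. With 1 array left out, Fgf7 ran from -0.33 to 0.22, Fgf18 from -0.01 to 0.12, Fgf23 from -0.08 to 0.21 and Spry4 from -0.25 to 0.07. The count of genes called was 1 over all genes and 1 among the other pathway genes with array weights and with a fixed replicate block, in both cases Dmp1 (adjusted p 0.0259 and 0.0153, against 0.384 without either and 1.00 with a random block), against 0 otherwise.

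Deviations of same-numbered arrays from their group means correlated at -0.26, -0.12 and 0.07 for numbers 1, 2 and 3. With 3 arrays per group, these correlations cannot show whether a replicate number marks a shared mouse. Both arrays numbered 1 had high Xist and low Y-linked transcripts, a hint from the data that they share sex, so the block also takes up that difference. Whether they came from 1 mouse is not stated. With the replicate block Spry2 had an unadjusted p of 0.0258 and the block changed no call of a member. Fgf2 had a fit only without the filter (log2 difference -0.54), and the stricter filter removed Fgf23. Background was not measured here, so how far either signal lay above it is not known.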
